A study of Mus musculus with 54 samples.

Results

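The 40 genes described here drive or mark the cell cycle, and they were followed by symbol in the TPM tables of all 54 single cells of the series, among 43280 symbols. All 40 were found. They comprise 13 genes of DNA synthesis (S phase), 20 genes of the late cycle (G2 phase and mitosis, G2/M), the G1 cyclins Ccnd1, Ccnd2 and Ccnd3, the cyclin-dependent kinase (CDK) inhibitors Cdkn1a and Cdkn1b, and Stmn1 and H2afz, which are abundant in dividing cells. Every cell came from mouse lung and carried the label of an interstitial macrophage, a macrophage of the tissue between the airspaces. The labels name no genotype, strain, age, treatment, animal, plate or batch, so the cells are 1 sample of 1 group, numbered here from 1 to 54 in order of deposition. TPM, transcripts relative to a fixed total in each cell, is a level corrected for transcript length.

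A cell that divides passes from G1, where D-type cyclins with CDK4 and CDK6 inactivate the RB proteins, into S phase, where E2F factors switch on genes that load helicases on the DNA and supply nucleotides. It then passes through G2 into mitosis, when cyclin B with CDK1 and the spindle and kinetochore genes are high. Tissue macrophages are known to be long-lived cells that can renew themselves by division in place, with most of them out of the cycle at any time.

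A gene was called present in a cell at 10 TPM or more, and a cell was said to hold many genes of a phase when at least 4 were present. The cells were also divided by the mean log2(TPM + 1) of Prg4 (lubricin), Alox15 (a lipoxygenase) and Fn1 (fibronectin), genes known to be high in macrophages of the serous cavities. This mean was 7 or more in 23 cells, called Prg4-high, and under 7 in 31 cells, called Prg4-low. The 2 lowest Prg4-high cells were cell 31 at 7.31 and cell 20 at 7.76, the other 21 were at 11.47 or more, and the highest Prg4-low cell was cell 29 at 5.34. These are measured ranges, not labelled groups, and cells are not replicates. Differences between them therefore carry no p-value, and intervals are exact binomial 95% intervals that cover counting error only.

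Between 792 and 3653 genes were present per Prg4-high cell (median 1877) and between 522 and 2239 per Prg4-low cell (median 1413), so the Prg4-high cells had more genes of any kind present; the part this played in the differences given here was not tested. The read depth cannot be recovered from these values, and a gene listed at 0 is not shown to be absent. The 10 macrophage markers had a mean level of 8.64 to 10.23 on the log2(TPM + 1) scale in the 6 cells with many genes of either phase, against 3.10 to 10.12 in the other 48 cells. Cell 37 alone among those 6 had 3 markers of another cell type, the monocyte-list genes Hp, Fn1 and Cd177, of which Fn1 also defined the Prg4-high range. The lowest level was in cell 40, Prg4-low, with 2 macrophage and 4 alveolar macrophage markers present. Cell 36, also Prg4-low, had 4 macrophage markers and 4 of T and natural killer cells. Cells 1, 15, 19 and 31 had 3 or more alveolar macrophage or monocyte markers. All these cells were kept.

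Most cells held few cell cycle genes, and a small number held most of them. In 24 of 54 cells none of the S-phase or G2/M genes was present, and 15 others had 1 S-phase gene and no G2/M gene. Cells 37 and 49 had all 13 S-phase genes, with 16 of 20 G2/M genes in cell 37 and 11 of 20 in cell 49. Cell 34 had 8 S-phase and 3 G2/M genes, and cells 45 and 42 had 5 S-phase genes each with 0 and 1 G2/M genes. Cells 8 and 12 had 6 and 3 G2/M genes and no S-phase gene. Of all genes seen in any cell, 14.6% were present in cell 8 and 5.32% in cell 12. At such shares few of 13 genes would be present, so a count of 0 S-phase genes does not show a lack. In cell 34 the 3 of 20 G2/M genes were not above that cell's share of all genes, 18.9%. Many S-phase genes were thus held by 5 cells, or 9.26% (interval 3.08 to 20.3%), and many G2/M genes by 3 cells, or 5.56% (1.16 to 15.4%). Without cells 37 and 49 these counts were 3 of 52 cells (5.77%) and 1 of 52 (1.92%).

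**Figure D1:**
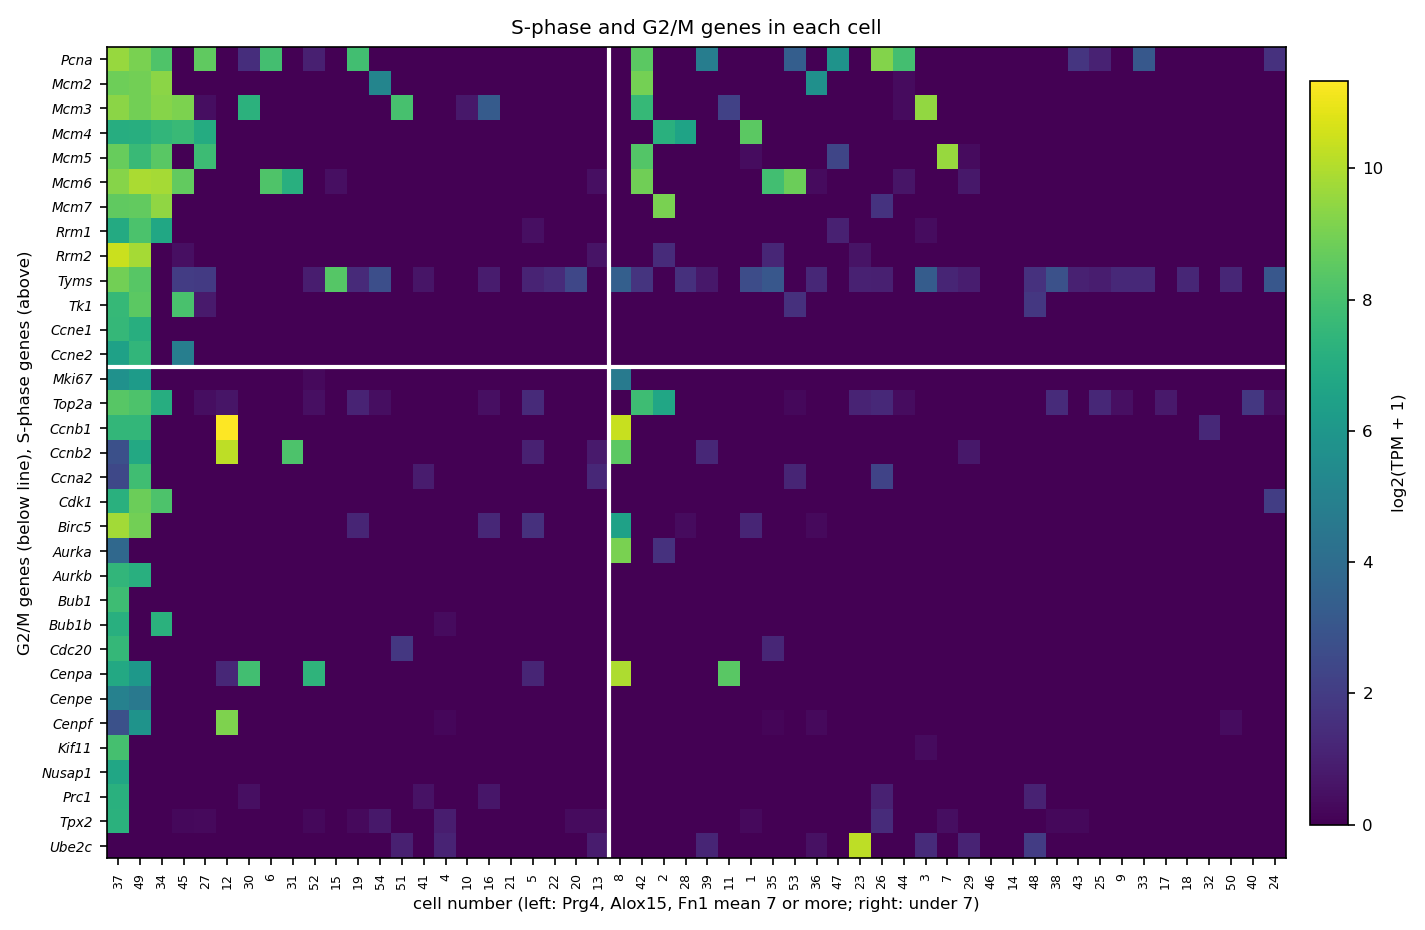
Level of each S-phase gene (above the white horizontal line) and G2/M gene (below it) in each of the 54 cells, as log2(TPM + 1) by colour. Prg4-high cells stand left of the white vertical line and Prg4-low cells right of it, each ordered by the number of these genes present; cells 37 and 49 fill most rows, cell 34 mainly the upper ones, and cells 8 and 12 reach 10 TPM only in lower ones.

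**Figure D2:**
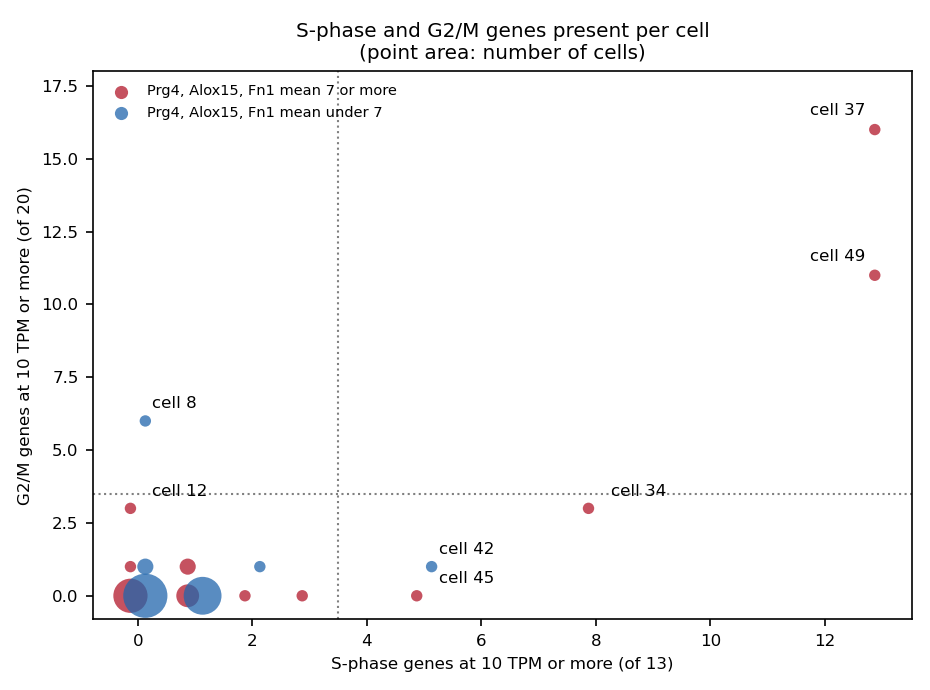
Number of S-phase genes (x axis, of 13) and of G2/M genes (y axis, of 20) at 10 TPM or more in each cell, with point area proportional to the number of cells, red for Prg4-high and blue for Prg4-low cells; dotted lines lie just under the bound of 4 genes. Cells 37 and 49 lie beyond both lines, cells 34, 45 and 42 beyond the S-phase line alone, and cell 8 beyond the G2/M line alone.

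The 3 cells with most of these genes were also those with most genes of any kind. Cells 49, 37 and 34 ranked 1, 2 and 3 in genes present, with 3653, 3267 and 2810. The next in rank, cells 41 and 4, had 2515 and 2466 genes present and none of the S-phase or G2/M genes. Of the 34 cells with at least 1500 genes present, 14 had none of them. In cell 37, 33 of the 40 members were present, or 82.5%, against 21.9% of all 14890 genes seen in any cell. In cell 49 it was 28 members, or 70.0%, against 24.5% of all genes. The members present in cell 34 were 15, or 37.5%, against 18.9% of all genes. Cell 42 had 10 members, or 25%, against 14%, and cell 8 had 9, or 22.5%, against 14.6%. Cell 45 had 7, or 17.5%, against 12.7%, and cell 12 had 6, or 15%, against 5.32% of all genes. These cells were picked by their counts of members, so the shares describe them and support nothing further. When a gene counted as present only among the 1000 highest values of its cell, the same number in every cell, many S-phase genes were again held by 5 cells, and many G2/M genes by 4. The fourth was cell 12, whose value at rank 1000 was 1.26 TPM.

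**Figure D3:**
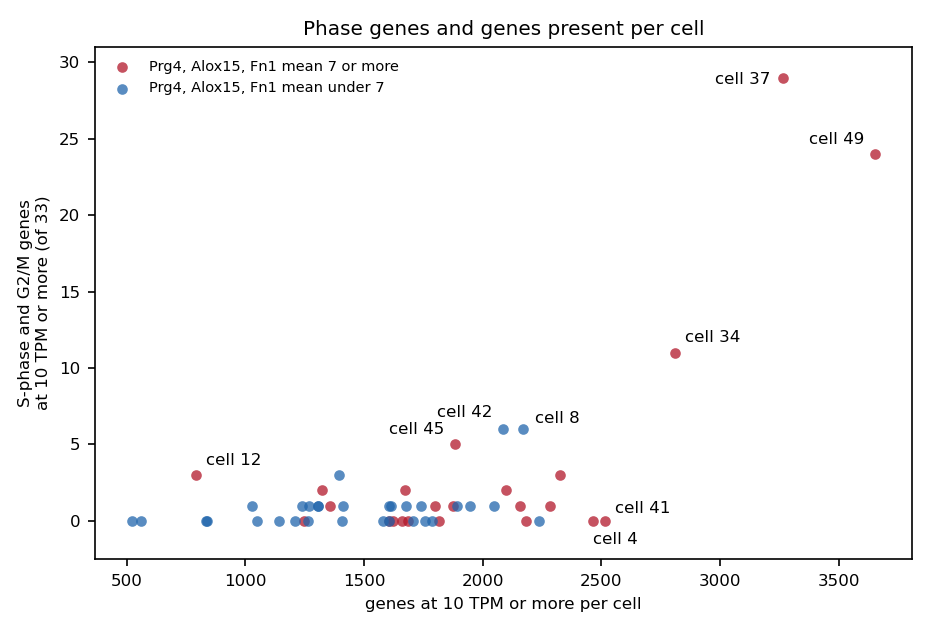
Number of S-phase and G2/M genes at 10 TPM or more (y axis, of 33) against the number of all genes at 10 TPM or more (x axis) per cell, red for Prg4-high and blue for Prg4-low cells. Cells 37, 49 and 34 are highest on both axes, while cells 41 and 4 come next on the x axis with 0 on the y axis.

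Prg4-high cells accounted for 4 of the 5 cells with many S-phase genes and for 2 of the 3 with many G2/M genes. Many S-phase genes were held by 4 of 23 Prg4-high cells, or 17.4% (4.95 to 38.8%), and by 1 of 31 Prg4-low cells, or 3.23% (0.0816 to 16.7%). Many G2/M genes were held by 2 of 23 Prg4-high cells, or 8.70% (1.07 to 28.04%), and by 1 of 31 Prg4-low cells, or 3.23%. The cells are 1 sample, so these shares were not tested against each other. Without cells 37 and 49, the Prg4-high shares were 2 of 21 cells (9.52%) for S-phase genes and 0 of 21 for G2/M genes, which allows a share of up to 14.3%. The Prg4-high cells were cells 37, 49, 34 and 45, with means of 11.47, 11.77, 12.03 and 12.47 for the defining genes, and cell 12, just under the bound for G2/M genes, stood at 11.71. The Prg4-low cells were cell 42 at 0.76 and cell 8 at 0. Cell 42 had 51998 TPM of Cd74 (the MHC class II invariant chain) and 35998 TPM of H2-Ab1 (an MHC class II chain), against 1.57 and 0 TPM in cell 37. Cell 8 had 2207 TPM of Cd74, 602 TPM of Lyve1 (a hyaluronan receptor) and 666 TPM of Timd4 (a receptor for phosphatidylserine), and no Prg4, Alox15 or Fn1. The cells with many genes of a phase thus differed from each other in these genes.

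The helicase genes Mcm2 to Mcm7 encode the subunits of a ring that opens the DNA at replication forks. All 6 were present in cells 34, 37 and 49, 4 in cell 42, 3 in cell 45, 2 in each of cells 2 and 27, 1 in each of 12 cells, and none in 35 cells. Mcm6 reached 616, 966 and 890 TPM in cells 37, 49 and 34, and 387 and 473 TPM in cells 45 and 42. It was present in 4 further cells, at 140 to 445 TPM (cells 31, 6, 35 and 53), and at 0.65 TPM or less in all others. Mcm3 was present in 6 Prg4-high and 2 Prg4-low cells, at 156 to 716 TPM. Mcm2 was at 454, 479 and 660 TPM in cells 37, 49 and 34 and at 504 TPM in cell 42, with 35.04 and 50.1 TPM in cells 54 and 36. Mcm7, present in the fewest cells of the 6, stood at 382, 391 and 704 TPM in cells 37, 49 and 34 and at 534 TPM in cell 2. A lone helicase gene could thus be as high in a cell with no other S-phase gene as in cells with all of them: Mcm4 was at 359 TPM in cell 1, its highest value, against 133 TPM in cell 37.

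Promoters of Mcm5 and Mcm6 are shown because they alone among the S-phase windows hold the E2F-type letters TTTGGCGC. The 250 bases before the start of each gene come from RefSeq (GRCm38.p6) and run 5′ to 3′ on the gene's strand. Capitals mark matches, on either strand, to TTTGGCGC, to CCAAT (the letters bound by NF-Y), and to TTTGAA and TTTAAA (letters of the CHR element known from late cell cycle genes).

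Mcm5 (chr8:75109259-75109508, plus strand): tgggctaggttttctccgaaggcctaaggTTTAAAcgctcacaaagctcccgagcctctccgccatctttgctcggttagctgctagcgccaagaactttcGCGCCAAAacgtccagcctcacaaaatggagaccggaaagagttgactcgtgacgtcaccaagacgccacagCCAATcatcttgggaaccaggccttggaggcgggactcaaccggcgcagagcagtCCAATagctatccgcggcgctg

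Mcm6 (chr1:128359706-128359955, minus strand): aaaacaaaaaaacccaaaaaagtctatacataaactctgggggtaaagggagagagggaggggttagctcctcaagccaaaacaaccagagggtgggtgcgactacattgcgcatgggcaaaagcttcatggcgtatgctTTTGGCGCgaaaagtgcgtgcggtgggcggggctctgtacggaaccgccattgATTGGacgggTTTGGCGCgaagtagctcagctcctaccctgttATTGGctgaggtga

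Pcna, the sliding clamp of the DNA polymerases, was the S-phase gene present in most cells, 6 of 23 Prg4-high and 5 of 31 Prg4-low cells. Its values there ran from 27.01 to 770 TPM, with 770, 529 and 299 TPM in cells 37, 49 and 34 and 354 TPM in cell 42. It was listed at 0 in cell 45, although 3 helicase genes were present there. Of the 11 cells with Pcna, 7 held fewer than 4 S-phase genes, so its presence alone did not mark cells with the rest of the set.

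The genes of nucleotide supply were present in 2 or 3 cells each. Rrm2, the regulated subunit of ribonucleotide reductase, reached 1356 and 890 TPM in cells 37 and 49 and no more than 1.67 TPM elsewhere. Rrm1, the other subunit, stood at 122, 282 and 107 TPM in cells 37, 49 and 34. Tyms, which makes thymidylate, was at 486 and 336 TPM in cells 37 and 49 and at 329 TPM in cell 15, which had no other S-phase gene. A further 31 cells had low Tyms values, none above 9.94 TPM. Tk1, thymidine kinase, was at 190 and 352 TPM in cells 37 and 49 and at 271 TPM in cell 45. Ccne1 and Ccne2, the E-type cyclins that act at the entry to S phase, were present in 2 and 3 cells. Ccne1 was at 188 and 138 TPM in cells 37 and 49 and at 0 in all others, and Ccne2 was at 89.4, 177 and 27.65 TPM in cells 37, 49 and 45. Rrm1, Rrm2, Tyms, Tk1, Ccne1 and Ccne2 were present in no Prg4-low cell, and each count of 0 leaves room for up to 9.68% of such cells. Each was present in only 2 or 3 cells, cells 37 and 49 always among them. The share of all genes with such a pattern was not counted, so these counts describe few cells and not the Prg4 ranges.

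**Figure D4:**
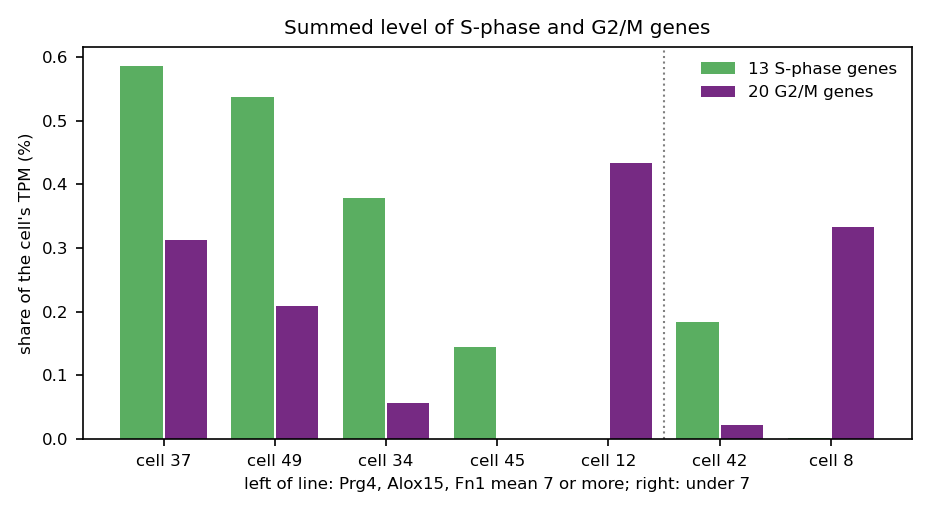
Summed level of the 13 S-phase genes (green) and the 20 G2/M genes (purple) as a percent of the cell's TPM (y axis) in the 6 cells with many genes of a phase and in cell 12; Prg4-high cells are left of the dotted line and Prg4-low cells right of it. Cells 37, 49 and 34 have the tallest green bars, and cells 12 and 8 have the tallest purple bars with next to no green.

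Summed over the lists, the S-phase genes took 0.586, 0.536 and 0.379% of the TPM in cells 37, 49 and 34, and 0.145 and 0.183% in cells 45 and 42. In the 48 cells without many genes of a phase the highest value was 0.0763% and the median 0.000531%. The G2/M genes took 0.313 and 0.209% in cells 37 and 49 and 0.333% in cell 8. The highest G2/M share of all, 0.434%, was in cell 12, which had the fewest genes above 0 of all cells (1227) and only 792 present. Cell 12 thus reached its sum with 3 genes.

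These 3 genes were Ccnb1 and Ccnb2, the B-type cyclins that activate CDK1 for mitosis, and Cenpf, a kinetochore protein. Ccnb1 was at 2584 TPM in cell 12 and 1340 TPM in cell 8, against 183 and 180 TPM in cells 37 and 49, and at 1.45 TPM or less in the other 50 cells. Ccnb2 was at 1184 TPM in cell 12, 360 TPM in cell 8, 290 TPM in cell 31 and 115 TPM in cell 49, while cell 37 had 5.88 TPM. Cenpf was at 570 TPM in cell 12 and 56.4 TPM in cell 49. The B-type cyclins were therefore highest in the cells that had no S-phase gene present.

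Cdk1 itself, the mitotic kinase, was present in 3 cells. It stood at 145, 435 and 284 TPM in cells 37, 49 and 34 and was listed at 0 in cells 8 and 12. Promoters of these 3 genes are shown for comparison with those of Mcm5 and Mcm6, from the same source and with the same marks.

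Ccnb1 (chr13:100786487-100786736, minus strand): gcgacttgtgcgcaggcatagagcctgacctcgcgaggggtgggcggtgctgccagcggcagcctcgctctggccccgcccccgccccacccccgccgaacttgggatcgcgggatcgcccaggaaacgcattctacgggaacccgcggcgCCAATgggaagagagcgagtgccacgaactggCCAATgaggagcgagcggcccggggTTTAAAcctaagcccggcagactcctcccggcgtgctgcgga

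Ccnb2 (chr9:70421555-70421804, minus strand): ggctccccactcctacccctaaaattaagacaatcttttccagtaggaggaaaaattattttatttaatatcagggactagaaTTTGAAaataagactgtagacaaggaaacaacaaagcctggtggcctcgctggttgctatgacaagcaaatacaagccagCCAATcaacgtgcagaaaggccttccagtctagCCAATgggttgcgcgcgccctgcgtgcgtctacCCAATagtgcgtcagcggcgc

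Cdk1 (chr10:69352913-69353162, minus strand): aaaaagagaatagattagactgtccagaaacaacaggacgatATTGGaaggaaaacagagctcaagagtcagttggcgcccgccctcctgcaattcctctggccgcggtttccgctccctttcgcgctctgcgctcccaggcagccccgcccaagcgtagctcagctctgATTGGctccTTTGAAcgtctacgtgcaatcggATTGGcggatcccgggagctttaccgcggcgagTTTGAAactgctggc

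None of these 3 windows holds TTTGGCGC, and each holds CCAAT 2 or 3 times along with TTTGAA or TTTAAA. The CCAAT matches begin 99 and 67 bases before the start in Ccnb1, 87, 54 and 21 in Ccnb2, and 208, 80 and 48 in Cdk1. The TTTAAA match begins 42 bases before the start in Ccnb1, and TTTGAA 167 bases before it in Ccnb2 and 71 and 15 in Cdk1. Windows were found for 32 of the 40 members, 17 of them G2/M and 11 S-phase genes. CCAAT was in 15 of 17 G2/M windows (88.2%) and 8 of 11 S-phase windows (72.7%), against 34.5% of the 27025 windows of all genes. TTTGAA or TTTAAA was in 11 of 17 G2/M windows (64.7%) and 4 of 11 S-phase windows (36.4%), against 25.5% of all. TTTGGCGC was in none of the G2/M windows and 2 of 11 S-phase windows (Mcm5 and Mcm6), against 0.437% of all, and GCGGGAA, another E2F-type run, was in none and 2 (Mcm7 and Rrm1), against 3.84%. Matches of different motifs, or of 1 motif with itself, overlapped in 1 of the 32 windows. A match is letters in a window and does not show that a factor binds there.

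Other G2/M genes differed in the cells that held them. Top2a, the topoisomerase that untangles replicated DNA, was at 335, 283 and 132 TPM in cells 37, 49 and 34 and at 227 and 104 TPM in cells 42 and 2. It was at 0.54 TPM or less in cells 8 and 12, and also at 0 in cell 45, which had 5 S-phase genes. Mki67, the gene of the proliferation antigen Ki-67, was low where present, at 52.7 and 72.7 TPM in cells 37 and 49 and 24.7 TPM in cell 8, and at 0.21 TPM or less elsewhere. Birc5, survivin, a subunit of the chromosomal passenger complex, was at 861, 488 and 87.4 TPM in the same 3 cells. Cenpa, the histone H3 variant of centromeres, was at 992 TPM in cell 8 and at 113 and 65.1 TPM in cells 37 and 49. It was also present at 166 to 341 TPM in cells 11, 30 and 52, which had no other G2/M gene. Aurka, the kinase of the spindle poles, was at 527 TPM in cell 8 and 13.2 TPM in cell 37, whereas Aurkb, the kinase of the passenger complex, was at 173 and 139 TPM in cells 37 and 49 and at 0 in cell 8.

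Bub1, Cdc20, Kif11, Nusap1, Prc1 and Tpx2 reached 10 TPM in cell 37 alone, at 102 to 253 TPM. They encode a spindle checkpoint kinase, an activator of the anaphase-promoting complex, a spindle motor and 3 microtubule-binding proteins of the spindle. Bub1b, a second checkpoint gene, was at 142 and 150 TPM in cells 37 and 34, and Cenpe, a kinetochore motor, at 30.5 and 22.9 TPM in cells 37 and 49. Ccna2, cyclin A2, was at 232 TPM in cell 49 and 4.48 TPM in cell 37. Ube2c, the ubiquitin-conjugating enzyme of the anaphase-promoting complex, stood apart, at 1196 TPM in cell 23 and at 0 in cells 37, 49 and 8. Of the G2/M values above 0 in all cells, 61.7% were under 10 TPM, against 39.4% of all values above 0. Tpx2 and Top2a accounted for 13 and 17 of these low values, none above 1.64 and 2.54 TPM.

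Members were present together above all in cells 37 and 49. Among the 25 members present in at least 3 cells there were 300 pairs, of which 228 shared at least 2 cells and 35 shared none. Without cells 37 and 49, 70 pairs shared at least 2 cells. Part of this fall was fixed in advance. Rrm1, Tyms, Tk1, Ccne2, Mki67, Cdk1 and Birc5 were present in 3 cells each, with cells 37 and 49 always among them. No pair with any of these genes could then share 2 cells. The 300 pairs include those of H2afz and Cdkn1a, present in 50 and 32 cells. Pairs of all genes were not counted in this way, so the counts have no background and describe the members only. Of the G2/M genes 4 were present in all 3 cells with many G2/M genes, namely Mki67, Ccnb1, Birc5 and Cenpa.

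Among the G1 cyclins and CDK inhibitors, Ccnd3, Cdkn1a and Cdkn1b were present in 14, 32 and 12 cells, and Ccnd1 and Ccnd2 in 5 and 3. Ccnd3, a D-type cyclin, ran from 0 to 1286 TPM in Prg4-high cells (median 219) and from 0 to 820 TPM in Prg4-low cells (median 0). It was present in 12 of 23 Prg4-high cells, or 52.2% (30.6 to 73.2%), and in 2 of 31 Prg4-low cells, or 6.45% (0.791 to 21.4%). The ranges of the values overlap. The difference in mean log2(TPM + 1), Prg4-high minus Prg4-low, was 4.07, and 3.62 without cells 37 and 49. Of the cells with many genes of a phase, cells 37, 49 and 34 had Ccnd3 at 723, 791 and 383 TPM, and cells 45, 42 and 8 had none. Ccnd1 was present in 3 Prg4-high and 2 Prg4-low cells, at 151 to 738 TPM, and Ccnd2 in 1 and 2 cells, at 15.3 to 68.0 TPM. Cells 37, 49 and 34 had neither at 10 TPM, while cell 45 had 195 TPM of Ccnd1 and cell 42 had 15.3 TPM of Ccnd2.

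Cdkn1a, which encodes the CDK inhibitor p21, was present in 16 of 23 Prg4-high cells, or 69.6% (47.1 to 86.8%), and in 16 of 31 Prg4-low cells, or 51.6% (33.1 to 69.8%). Its values ran from 0 to 1191 TPM (median 177) in Prg4-high cells and from 0 to 1655 TPM (median 77.3) in Prg4-low cells, and these ranges overlap. It was also present in cells with many phase genes, at 385, 269 and 609 TPM in cells 37, 49 and 34 and 470 TPM in cell 8, and at 1191 TPM, its highest Prg4-high value, in cell 12. Cells 45 and 42 had none.

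Cdkn1b, which encodes the CDK inhibitor p27, was lower in Prg4-high cells. It ran from 0 to 40.7 TPM (median 0.32) there and from 0 to 65.6 TPM (median 4.26) in Prg4-low cells, with overlapping ranges. It was present in 2 of 23 Prg4-high cells, or 8.70% (1.07 to 28.04%), and in 10 of 31 Prg4-low cells, or 32.3% (16.7 to 51.4%). The difference in mean log2 level was -1.52, within low values throughout. Cells 37, 49, 34 and 45 had 0.85 TPM or less, while cell 42 had 17.6 TPM and cell 12 had 34.05 TPM.

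**Figure D5:**
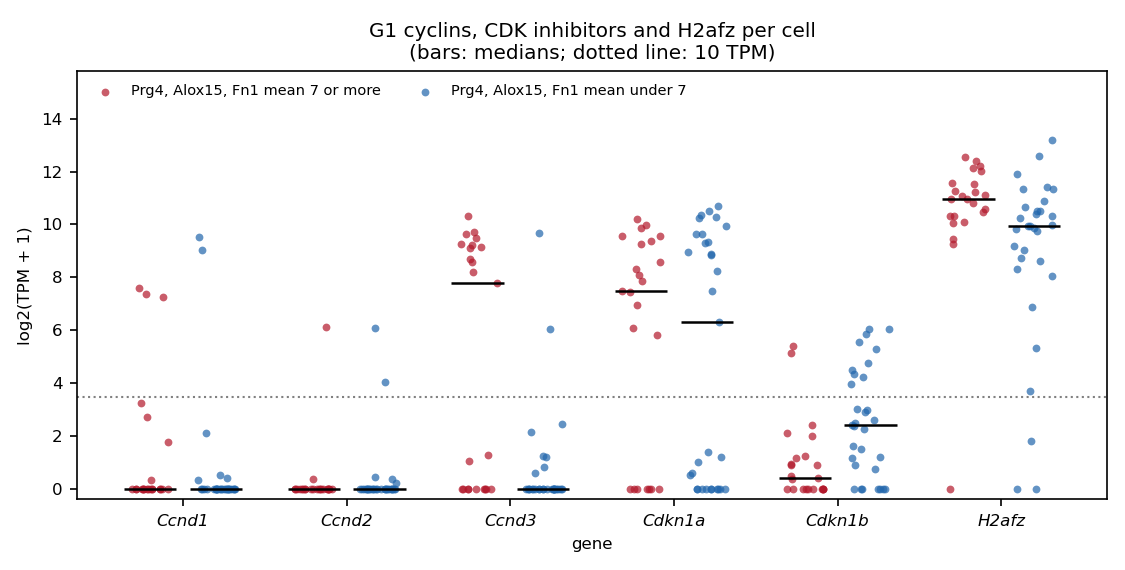
Level per cell, as log2(TPM + 1) (y axis), of the G1 cyclins, the CDK inhibitors and H2afz, with Prg4-high cells in red at the left and Prg4-low cells in blue at the right of each pair; black bars are medians and the dotted line is 10 TPM. Ccnd3 has most of its high values in red, Cdkn1b most of its values above the line in blue, and H2afz is high in nearly all cells.

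Stmn1, a protein that destabilises microtubules, was at 1847 TPM in cell 8, 656, 447 and 167 TPM in cells 37, 49 and 34, 335 TPM in cell 42 and 203 TPM in cell 19, and at 1.46 TPM or less in all others. H2afz, the histone variant H2A.Z, was the most widespread member. It ran from 0 to 6035 TPM (median 2002) in Prg4-high cells and from 0 to 9489 TPM (median 974) in Prg4-low cells, and was present in 22 of 23 and 28 of 31 cells. Cells 37, 49 and 34 had 4793, 5391 and 4126 TPM, and the highest Prg4-high value was in cell 12. The highest Prg4-low values, 9489 and 6156 TPM, were in cells 40 and 36, which had several markers of other cell types.

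The members' share with a difference between the Prg4 ranges depended on the setting. Of the 40 members 4 (10.0%) were higher in Prg4-high cells by more than 1 in mean log2(TPM + 1), against 12.1% of all 14890 genes, and 1 (2.50%) was lower, against 3.23%. The 4 were Ccnd3 (4.07), Mcm3 (1.82), H2afz (1.70) and Mcm6 (1.46), and the 1 was Cdkn1b. The median difference of the members was 0.73, against 0.05 for all genes, and 0.08 against 0.01 without cells 37 and 49. Without them 3 members (7.5%) were higher, against 10.5% of all genes, with Mcm3 at 1.18 and Mcm6 at 0.77. The count of members higher was not stable: it was 20 of 40 (50%) at a pseudocount of 0.1, against 19.2% of all genes, and 11 of 40 (27.5%) among cells with at least 1500 genes present, against 12% of all genes. With the Prg4 threshold at 8 it was 10 of 40, against 13.2% of all genes, and without cells 12 and 31 it was 10 of 40, against 13.7%.

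Further cell cycle genes from lists set beside the members were again concentrated in few cells. Of 26 other S-phase genes, 18 were present in cell 37, 19 in cell 49, 10 in cell 34, 3 in cell 45, 2 in cell 42, 1 in cell 8 and none in cell 12. Of 34 other G2/M genes, 23 were present in cell 37, 16 in cell 49, 8 in cell 8, 6 in cell 34 and 4 in cell 12. At 4 genes or more, these lists picked cells 37, 49 and 34 for S phase, and the same 3 with cells 8 and 12 for G2/M. Of all genes, 18.9% were present in cell 34, 12.7% in cell 45 and 14% in cell 42. The 6 of 34 G2/M genes in cell 34 were not above that cell's share, so its pick for G2/M shows no excess. The 3 and 2 of 26 S-phase genes in cells 45 and 42 were not above it either. The other counts that picked a cell were above the cell's share of all genes. Plk1, a mitotic kinase chosen here after its values were seen, was at 363 TPM in cell 8 and 43.6 TPM in cell 36 and in no other cell at 10 TPM. Of the other G2/M list 4 genes were higher in Prg4-high cells by more than 1 (Smc4, Cks2, Melk and Hmgb2) and none lower, or 11.8%, against 12.1% of all genes, with a list median of 0.39 that was 0 without cells 37 and 49. Of the other S-phase list 4 were higher (Rfc2, Lig1, Dut and Pola1) and none lower, or 15.4%, with a median of 0.62 that was 0.10 without cells 37 and 49. Some of the cell cycle genes set beside the members were present in all 3 cells with many G2/M genes. They were Slbp (histone mRNA binding), Smc4 (condensin), Racgap1 (cytokinesis), Cdk4 and Btg2. They were present in 6, 9, 5, 14 and 41 of the 48 cells without many genes of a phase. Btg2 was at 12.2, 421 and 60.7 TPM in cells 37, 49 and 8, so just over the 10 TPM bound in cell 37.

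The 17 regulators included the E2F and RB families, the MuvB subunits and their partners. Of these 17, 6 were present in cell 37, where 21.9% of all genes were present. In cell 49, with 24.5% of all genes present, the count was 8 of 17. Foxm1 and Mybl2, transcription factors of the late cycle, were at 204 and 108 TPM in cell 37 and 44.1 and 73.6 TPM in cell 49, and in no other cell at 10 TPM. The same held for E2f7 and Rbl2, at 25.9 and 33.3 TPM in cell 37 and 26.3 and 68.1 TPM in cell 49. E2f1 was present in 2 Prg4-high cells, 1 of them cell 49 at 150 TPM, and in 9 Prg4-low cells, none of which held many genes of a phase. Of its 11 cells, 5 had at least 1 S-phase gene present (cells 2, 35, 39, 44 and 49), a share close to that of all cells, 25 of 54 or 46.3%.

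Among genes outside all lists, 6 were present in all 3 cells with many G2/M genes and in none of the other 51 cells: 2810417H13Rik, Cenpq, Larp7, Shcbp1, Spc24 and Trip13. Cenpq and Spc24 encode kinetochore proteins and Trip13 a spindle checkpoint ATPase. Spc24 was at 205, 279 and 98.9 TPM in cells 37, 49 and 8, and 2810417H13Rik at 512, 325 and 50.2 TPM. Ctdp1 and Mbd1 were present in 1 further cell each, and Apool, Gm6565, Hmgb3, Setdb2 and Triobp in 2, tying for the last of 12 places. They were ranked by the difference in the share of cells, over all genes present in at least 3 cells, and such a list from 3 cells describes those cells alone.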

How the data were processed

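Each of the 54 cells was a SMART-seq2 library with a Nextera kit, read from both ends on a HiSeq machine, per the labels' protocols. The authors deposited TPM values, 1 table per cell, made with RSEM per the submitters' processing notes. Its version, the aligner, the build and the annotation are not given in the sources used here. TPM totals ran from 997509 to 1000000 per cell, and depth is unknown.

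Values were read with pandas 2.3.3 and NumPy 2.4.6 under Python 3.11.15, with no filter on cells or genes and no doublet caller. Presence was 10 TPM or more, and levels were log2(TPM + 1), which understates changes of low genes. Exact binomial intervals came from SciPy 1.17.1, and a share of 0 carries the limit of 3 counts. Counting steps were run on simulated data with phase genes planted in known cells well above the bounds. Recovery of those cells was fixed in advance, so this checked the code alone. There was no test, since the labels give 1 sample. Figures were drawn with Matplotlib 3.10.9.

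The members, lists and thresholds were chosen with earlier results of these data known. The genes named were all members, listed genes present in all 3 cells with many G2/M genes, and the 12 genes outside the lists with the largest difference in share between those cells and the rest; others are named by count or as chosen later. Pcna, Ccnb2 and Ccnd3 have listed pseudogenes, and H2afz a close relative, H2afv, present in 16 cells, so reads may be split between copies. The listed pseudogenes reached 10 TPM in 0 cells. Promoter windows were the first listed per gene in RefSeq GRCm38.p6, matched by symbol.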

Additional observations from a re-analysis of the deposited data

How the results depend on the processing

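The share of all cells with many S-phase genes, 9.26% as reported, ran from 5.56 to 14.7% under the 11 alternatives tried. That of Prg4-high cells, 17.4% as reported, ran from 9.52% (without cells 37 and 49) to 21.7% under 13. All these values lay inside the intervals of 3.08 to 20.3% and 4.95 to 38.8%. With so few cells these intervals are wide, so this does not show that the shares are stable. With presence taken as any value above 0, the share with many G2/M genes was 16.7% of all cells and 30.4% of Prg4-high cells, since low values then count. Without cells 37 and 49 the Prg4-high share for G2/M genes was 0. The Prg4-low share for S-phase genes was 0 with 6 genes as the bound, and 0 with the other cell cycle lists. The number of members higher by more than 1 in Prg4-high cells was 4 of 40 (10%, against 12.1% of all genes) as reported. It was 20 (against 19.2% of all genes) at a pseudocount of 0.1, 11 (against 12%) in cells with at least 1500 genes present, 10 (against 13.2%) with the Prg4 threshold at 8 and 10 (against 13.7%) without cells 12 and 31. In these 4 settings the members' share, 25 to 50%, was above that of all genes, and the cause was not tested. All 4 settings kept cells 37 and 49. Without these cells, with all else as reported, 3 of 40 members (7.5%) were higher, against 10.5% of all genes. The number lower was 0 at a pseudocount of 10, which shrinks low values. Leaving out cells 37 and 49, or 12 and 31, was chosen after seeing the data. No paired analysis was possible because the labels describe a single set of cells.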

Other observations

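Other CDK and arrest genes ranged from presence in most cells to none: Btg2 was present in 46 cells and Cdk6 in 24, Cdkn2b in 3, and Cdkn1c and Cdkn2a in 0. Btg2, an antiproliferative gene, was present in 20 of 23 Prg4-high and 26 of 31 Prg4-low cells, with medians of 900 and 903 TPM. It stood at 1620 and 421 TPM in cells 34 and 49, and at 60.7 TPM or less in cells 8, 37, 42 and 45. Gadd45a and Gadd45b were also chosen after their values were seen. Gadd45a, a stress gene that restrains the cycle, was present in 6 Prg4-high cells and no Prg4-low cell (up to 9.68% allowed), at up to 575 TPM. Its relative Gadd45b was present in no Prg4-high cell (up to 13.04% allowed) and in 4 Prg4-low cells, at up to 4021 TPM. How many of all genes present in so few cells fell in 1 Prg4 range alone was not counted. The counts for Gadd45a and Gadd45b therefore have no background and show no contrast between the ranges. Cdk4 was present in 13 Prg4-high and 7 Prg4-low cells, with medians of 280 and 0.68 TPM, and Cdk6 in 10 and 14, with medians of 1.17 and 1.55 TPM.

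Chosen after their values were seen, Mertk and Cdk4 were present in most of the 6 cells with many genes of a phase. Mertk, an engulfment receptor and 1 of the 10 macrophage markers, was present in 5 of 6, or 83.3% (exact binomial interval 35.9 to 99.6%). In the other cells it was present in 7 of 48, or 14.6% (6.07 to 27.8%). Csf1r, another of these markers, went the other way, with 5 of 6 (83.3%) and 44 of 48 (91.7%). Cdk4 was present in 6 of 6 and in 14 of 48, or 29.2%. The share of all genes with such a contrast was not counted, so these counts describe the 6 cells alone. The part played by the larger number of genes seen in some of these 6 cells was not tested.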
